A study of Mus musculus with 9 samples.

Results

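Ndrg1, Bnip3, Ankrd37, Vegfa, Slc2a1, Pgk1, Ldha, Pdk1, Egln3 and Car9 are 10 genes that cells use when oxygen is scarce or when glucose is broken down to lactate. They were taken by gene symbol from the 23235 symbols of the deposited tables, and each symbol had 1 row in every table. Expression was measured by RNA sequencing of whole pancreas from mouse embryos at e15.5, in 9 libraries. Knockout libraries (KO) came from Blinc1-/- embryos, heterozygote libraries (Het) from Blinc1+/- embryos and wild-type libraries (WT) from Blinc1+/+ embryos, with 3 libraries in each group. The strain background was mixed, c57bl/6 with 129sv, in all groups. Blinc1 makes a long noncoding RNA and lies next to Nkx2-2; the sources used here do not describe its mutant allele. Whether each library stands for its own embryo is not stated. A p-value here therefore covers only the spread between these samples, which may be technical. In Het and WT it is not technical alone, since sex-linked genes show male and female libraries in each. The 3 KO libraries were all female, so sex cannot show whether they came from different embryos. They differed at Nkx2-2 and Car9, as given below, and whether any of them share an embryo was not tested.

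In cells with enough oxygen, prolyl hydroxylases of the EGLN family mark the alpha subunits of hypoxia-inducible factor (HIF), and the VHL protein then has them destroyed. When oxygen falls the alpha subunits persist, pair with Arnt and switch on genes for glucose uptake, glycolysis, vessel growth and survival. In explants of the embryonic pancreas, low oxygen is known to hold back the differentiation of endocrine cells.

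The whole-organ character of the libraries bears on every value. Summed over 9 acinar markers, expression was 15284 to 22743 FPKM in KO, 17585 to 19751 FPKM in Het and 16079 to 16434 FPKM in WT libraries, where FPKM is the fragment count scaled to transcript length and library size. Every acinar and endocrine marker listed was detected, so the tissue label was matched by its defining genes. The depth implied by the confidence bounds of the files was 19532984 to 25437255 fragments per library. Blinc1 itself gave no value here, so the genotype labels were not checked on it. Nkx2-2 split the mutant groups. It was at 24.9, 6.08 and 5.48 FPKM in KO replicates 1, 2 and 3, at 6.37, 19.0 and 13.4 FPKM in Het, and at 15.2, 21.7 and 25.5 FPKM in WT. The libraries labelled KO replicate 1 and Het replicate 1 thus each stood apart from the other 2 of their group. The labels cannot settle whether these 2 libraries carry the right genotype, and every KO or Het value below takes the labels as given. By Xist, Ddx3y and Eif2s3y, all 3 KO libraries were female, as were Het replicate 3 and WT replicate 3, and the other 4 libraries were male. With 1 female WT library, a comparison of KO with WT among females has no spread for WT.

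All 10 genes were expressed in every library, between 4.91 and 404 FPKM. All 10 passed the filter for testing (at least 1 FPKM in at least 3 libraries), as did 13306 genes in all. FPKM is scaled by length, so levels can be set side by side. Averaged over the 9 libraries, Ldha had the highest FPKM of the 10 (364), followed by Ndrg1 (99.4), Pgk1 (85.1), Car9 (73.1), Slc2a1 (39.7), Pdk1 (37.1), Vegfa (31.5), Bnip3 (23.0), Egln3 (20.3) and Ankrd37 (5.72). The ranges over libraries did not overlap at 3 steps of this order, from Ldha to Ndrg1, from Vegfa to Bnip3 and from Egln3 to Ankrd37. At the other 6 steps the ranges overlapped, although Car9 exceeded Slc2a1 within each of the 9 libraries. Ldha lay above 98.6% of the tested genes and Ankrd37 above 31.3%.

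No gene of the 10 differed between genotypes by the test. The test was limma on log2(FPKM + 1), two-sided, with all 9 libraries in 1 fit and Benjamini-Hochberg adjustment over all 13306 genes at a threshold of 0.05. Fold changes are given as differences on that log2 scale, which understates the change of low genes. In KO against WT 0 of the 10 genes passed, as did 0% of all genes tested, and 1 of the 10 against 8.39% of all genes (1117) had an unadjusted p under 0.05. That gene, Ndrg1, was higher in KO, as were 2.6% of all genes by the same threshold. In Het against WT 0 of the 10 and 0% of all genes passed, with 0 of the 10 and 3.92% of all genes (522) under the unadjusted threshold, or 1.35% counting only higher genes. In KO against Het 0 of the 10 and 0% of all genes passed, with 0 of the 10 and 2.22% (296) under it, or 1.26% counting only higher genes. limma-voom on the implied fragments also called 0 genes in each comparison, with 1164, 504 and 274 genes under an unadjusted p of 0.05. These background counts depended on single libraries. For KO against WT the unadjusted count was 2622 without KO replicate 1, 397 without KO replicate 2, 600 without KO replicate 3, 713 without WT replicate 1 and 413 without WT replicate 2. For Het against WT it was 274 without WT replicate 2 and 868 without WT replicate 3. For KO against Het it was 1187 without KO replicate 1, 183 without KO replicate 2 and 554 without Het replicate 2.

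**Figure D1:**
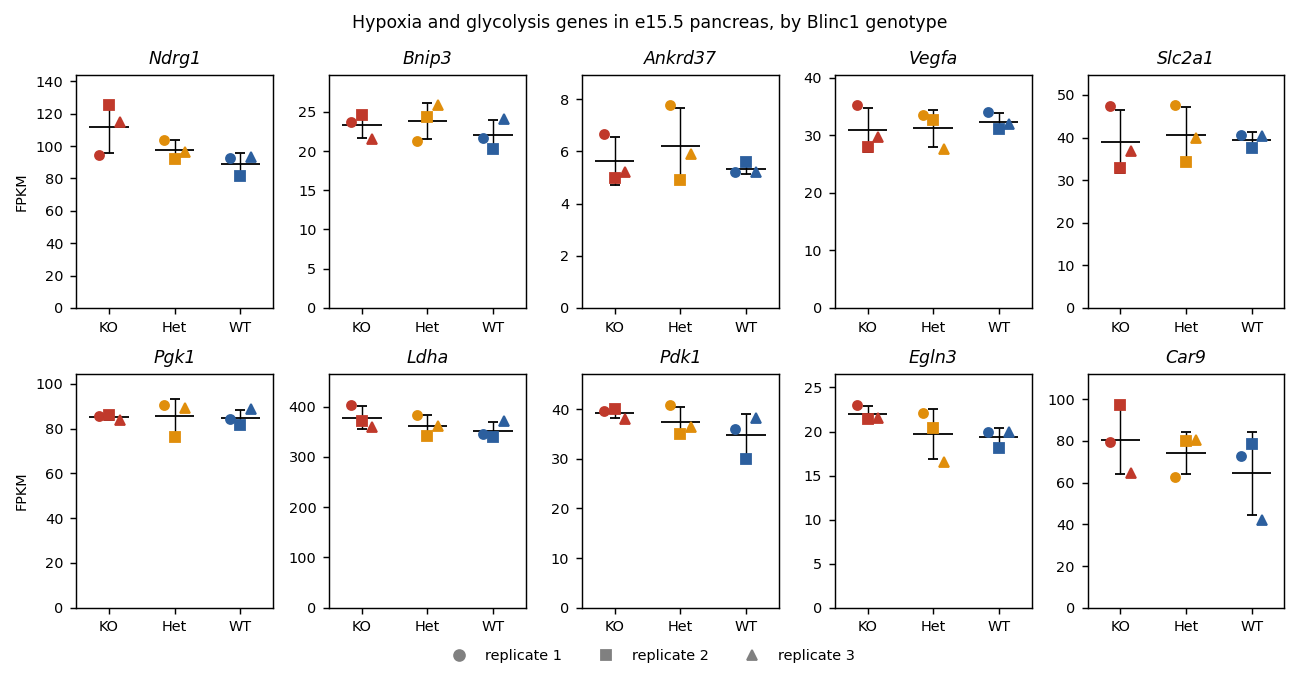
FPKM of the 10 genes (vertical axes, each from 0) in KO, Het and WT libraries. Points are libraries, with a shape for each replicate number, and lines with bars are the mean and SD of 3 libraries. Ndrg1 runs from 94.6 to 125 FPKM in KO and from 81.5 to 93.0 FPKM in WT, and the groups overlap for 8 of the 10 genes between KO and WT.

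Ndrg1 encodes a cytoplasmic protein that is induced by low oxygen and by differentiation (mm9 chromosome 15, 66760880 to 66801203, protein coding, minus strand). It was at 94.6, 125 and 115 FPKM in KO replicates 1, 2 and 3, at 104, 91.8 and 96.3 FPKM in Het, and at 92.7, 81.5 and 93.0 FPKM in WT. Every KO library lay above every WT library, but KO replicate 1 exceeded the highest WT library only narrowly, and it lay within the Het range. Genes whose KO libraries all lay above all WT libraries made up 4.55% of those tested, and Ndrg1 and Egln3 were such genes among the 10. No gene of the 10 had all KO libraries below all WT libraries (6.64% of those tested). Between Het and WT 0 of the 10 were separated upwards (3.54% of those tested) or downwards (7.05%), and between KO and Het likewise 0 upwards (3.48%) or downwards (2.43%). The KO mean differed from WT by 0.32 on the log2 scale (SE 0.10, 95% interval 0.087 to 0.54, limma adjusted p = 0.576). Of all tested genes, 7.61% had a larger absolute difference in this comparison. Without KO replicate 1 the difference was 0.43 (limma adjusted p = 0.0809), and without KO replicate 2 it was 0.23. Het libraries overlapped both other groups, with a difference of 0.13 (SE 0.10) from WT. Ndrg1 made up 61.9% ± 5.70 of the summed FPKM of the 4 Ndrg genes in KO, 58.6% ± 0.676 in Het and 57.0% ± 2.56 in WT (SD, n = 3 each). Gm17035 and Gm2895 overlap Ndrg1 on the other strand, so part of its reads may be theirs.

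Marker sums of several cell types moved against Ndrg1, and the acinar sum moved with it. KO replicates 2 and 3, which had the highest Ndrg1 levels, had the lowest summed FPKM of 8 endothelial markers (173 and 196). That sum was 173 to 217 FPKM in KO, 206 to 215 FPKM in Het and 208 to 239 FPKM in WT, and none of the 8 markers was at 0. Each r here and below is of log2(FPKM + 1), taken for a marker list on its summed FPKM. Over the 9 libraries Ndrg1 and the endothelial sum had a Pearson r of -0.929 (exact permutation p = 0.000694, adjusted p = 0.0278) and a Spearman rho of -0.700 (exact permutation p = 0.0433, adjusted p = 0.532). Adjustment ran over 80 relations, 10 genes with 8 marker lists, a family chosen after values had been seen. The adjusted Pearson p was over the threshold, at 0.0556 to 0.224, when any 1 of KO replicates 1, 2 or 3, Het replicate 1, WT replicate 1 or WT replicate 2 was left out. Without the 2 libraries farthest from the median sum, KO replicate 2 and WT replicate 2, r was -0.745. For deviations from the group means it was -0.880. Each of the 8 endothelial markers had a negative r with Ndrg1, from -0.943 to -0.576. Other marker sums moved against Ndrg1 too. The r was -0.852 with the immune sum (exact permutation p = 0.00408, adjusted p = 0.0652), -0.836 with the endocrine sum (exact permutation p = 0.00304, adjusted p = 0.0608) and -0.817 with the mesenchymal sum (exact permutation p = 0.0068, adjusted p = 0.0907), and the Spearman adjusted p of these 3 was 0.428 to 0.532. With the acinar sum r was 0.728 (exact permutation p = 0.0280, adjusted p = 0.249), rho was 0.450 (exact permutation p = 0.230, adjusted p = 0.714), and r was 0.486 without KO replicates 1 and 2. By sign, 8 of 9 acinar markers were higher in KO than in WT, and 1 of 9 endocrine, 0 of 8 endothelial, 0 of 9 mesenchymal and 0 of 8 immune markers were. The part of cell composition in the Ndrg1 values was not tested. In RNA from a whole organ, fewer cells of a type and less RNA per cell cannot be told apart.

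Egln3 encodes a prolyl hydroxylase that is both an oxygen sensor and a HIF target (mm9 chromosome 12, 55279968 to 55304861, minus strand). It was at 23.0, 21.4 and 21.5 FPKM in KO replicates 1 to 3, at 22.1, 20.4 and 16.6 FPKM in Het, and at 19.9, 18.1 and 20.0 FPKM in WT. All KO libraries exceeded all WT libraries, while Het replicate 3 was the lowest of the 9. The KO mean differed from WT by 0.18 (SE 0.096, limma adjusted p = 0.578) and from Het by 0.16 (SE 0.096). With sex as a covariate the KO difference from WT was 0.27 (SE 0.11), and WT replicate 3, the female WT library, was at 20.0 FPKM. The other 2 hydroxylases of the family had higher levels, with Egln1 at 32.2 ± 2.94, 32.9 ± 3.68 and 34.1 ± 0.996 FPKM and Egln2 at 38.5 ± 1.60, 41.2 ± 1.47 and 40.0 ± 1.73 FPKM in KO, Het and WT (SD, n = 3 each). Egln3 made up 23.7% ± 0.547 of the summed FPKM of the 3 hydroxylase genes in KO, 21.0% ± 2.64 in Het and 20.7% ± 1.07 in WT (SD, n = 3 each).

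Slc2a1, the glucose transporter GLUT1, and Ankrd37, an ankyrin repeat protein and HIF target, shared a pattern over the libraries that did not follow genotype. Slc2a1 (mm9 chromosome 4, 118781350 to 118809934, plus strand) was at 47.4, 33.0 and 36.8 FPKM in KO replicates 1 to 3, at 47.7, 34.3 and 39.8 FPKM in Het, and at 40.6, 37.6 and 40.4 FPKM in WT. Ankrd37 (mm9 chromosome 8, 47082262 to 47085204, minus strand) was at 6.68, 4.99 and 5.21 FPKM in KO, at 7.78, 4.91 and 5.89 FPKM in Het, and at 5.22, 5.59 and 5.21 FPKM in WT. In both genes KO replicate 1 and Het replicate 1 were the 2 highest libraries, and replicate 2 was the lowest of both mutant groups. The WT libraries lay close together. KO differed from WT by -0.033 for Slc2a1 (SE 0.14, 95% interval -0.35 to 0.28) and by 0.055 for Ankrd37 (SE 0.15, -0.27 to 0.38), both smaller than the spread between KO libraries. Without KO replicate 1 these differences were -0.18 and -0.056. Without Het replicate 1 the Het differences from WT were -0.094 for Slc2a1 (0.025 with it) and 0.011 for Ankrd37 (0.16 with it). Ankrd37 rests on 77 to 123 implied fragments per library. Slc2a1 made up 76.1% ± 4.04 of the summed FPKM of the 4 transporter genes Slc2a1 to Slc2a4 in KO, 76.1% ± 1.2 in Het and 71.5% ± 3.35 in WT (SD, n = 3 each). The deposited bounds of Ankrd37 were 5.47 to 7.88 FPKM in KO replicate 1 and 6.33 to 9.23 FPKM in Het replicate 1. They were 4.13 to 6.31 FPKM in WT replicate 1 and 4.40 to 6.78 FPKM in WT replicate 2, the highest WT library. The bounds of WT replicate 2 thus overlapped those of both mutant libraries. Ufsp2 and Lrp2bp overlap Ankrd37 on the other strand, and whether counting used strand is not given, so their reads cannot be told apart from its own. The same holds for Slc2a1, which Gm12867 and Gm12868 overlap.

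KO replicate 1 and Het replicate 1 were the 2 highest libraries for 4 of the 10 genes, Ankrd37, Slc2a1, Ldha and Egln3, against 6.42% of all genes tested. KO replicate 1 was among the 2 highest for 5 of the 10 (27% of all genes) and Het replicate 1 for 6 of the 10 (27.3%). This pair of libraries was picked out after the values had been seen. Among 20 other glycolysis genes the same held for 8, including Slc2a3 (GLUT3), Slc16a3 (a lactate exporter) and Pfkp (a phosphofructokinase). Slc2a3 was at 6.80, 2.39 and 3.77 FPKM in KO, 7.71, 2.73 and 4.05 FPKM in Het and 4.24, 5.11 and 4.05 FPKM in WT. It therefore spread more within the mutant groups than within WT, as Slc2a1 did. Among 24 other HIF target genes it held for 3, and among 9 acinar genes for 0.

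**Figure D2:**
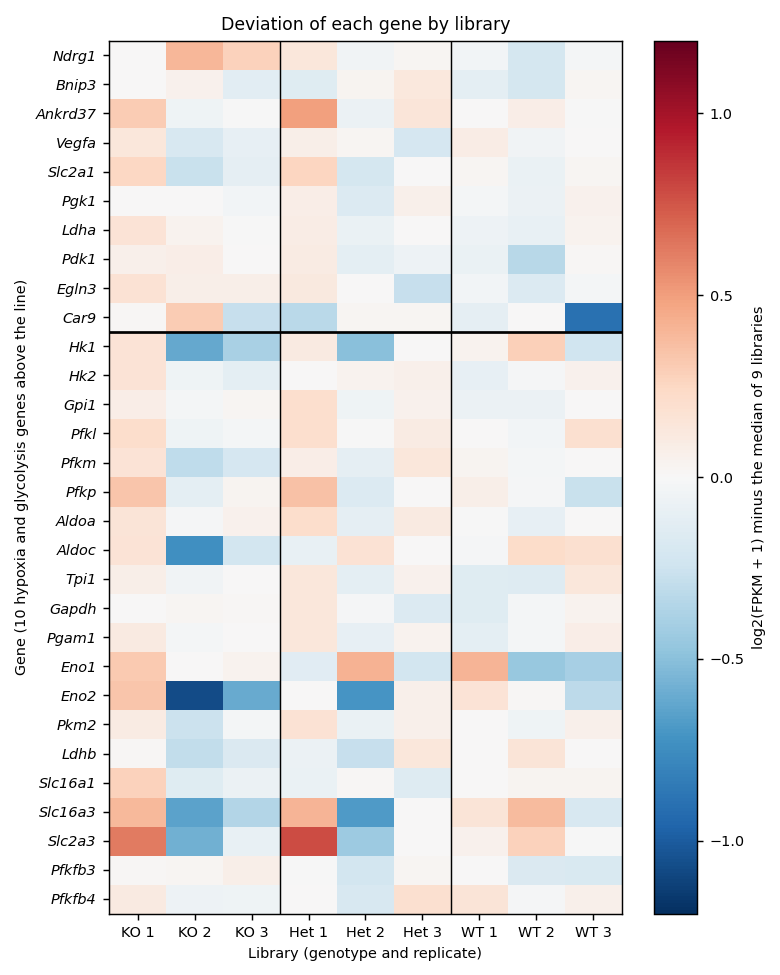
Deviation of log2(FPKM + 1) from the median of 9 libraries (colour) for the 10 genes above the line and 20 other glycolysis genes below it, by library. KO 1 and Het 1 are the 2 highest libraries for 4 of the 10 and 8 of the 20 genes, and Car9 is lowest in WT 3, at 41.9 FPKM.

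The 7 markers of neurons and glia had the same 2 libraries at the top. Their summed level was 196, 56.9 and 64.0 FPKM in KO replicates 1 to 3, 239, 52.8 and 133 FPKM in Het, and 102, 136 and 82.7 FPKM in WT. KO replicate 1 and Het replicate 1 were the 2 highest libraries for 6 of these 7 markers, and none of the 7 was at 0. Ankrd37 and the sum had a Pearson r of 0.920 over the 9 libraries (exact permutation p = 1.38e-05, adjusted p = 0.0011 over the 80 relations) and a Spearman rho of 0.983 (exact permutation p = 4.96e-05, adjusted p = 0.00397). Without Het replicates 1 and 2, the libraries farthest from the median sum, r was 0.909. Without KO replicate 1 and Het replicate 1 it was 0.904 over 7 libraries. For Slc2a1 r was 0.896 (exact permutation p = 0.00146, adjusted p = 0.039) and rho was 0.833 (exact permutation p = 0.00827, adjusted p = 0.220). It was 0.813 without Het replicates 1 and 2 and 0.724 without KO replicate 1 and Het replicate 1. The adjusted p of Slc2a1 was over the threshold when any 1 library other than WT replicate 2 was left out (0.0516 to 0.153). All 7 markers had a positive r with each gene, 0.663 to 0.970 for Ankrd37 and 0.795 to 0.876 for Slc2a1. The highest of these markers, Stmn2 and Tubb3, are also expressed by immature endocrine cells. The share of nervous tissue in the Ankrd37 and Slc2a1 values was not tested.

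**Figure D3:**
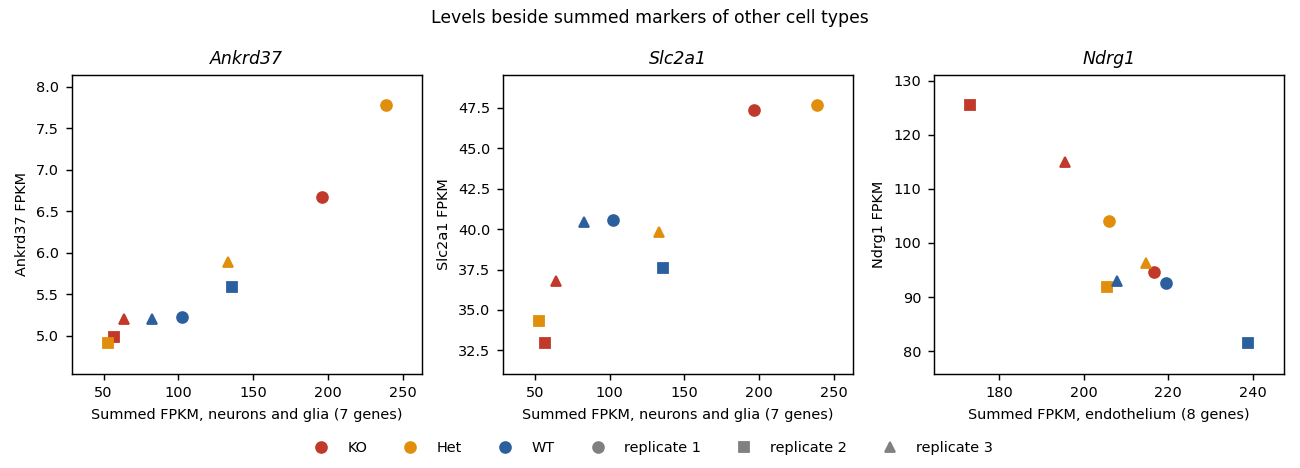
FPKM of Ankrd37 and Slc2a1 (vertical axes) against the summed FPKM of 7 neuron and glia markers, and of Ndrg1 against that of 8 endothelial markers. The axes are in FPKM and do not start at 0, while r in the text is of log2(FPKM + 1). Colours are genotypes and shapes are replicate numbers. KO replicate 1 and Het replicate 1 lie at the upper right for Ankrd37 and Slc2a1, at sums of 196 and 239 FPKM.

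The 250 bases before the start of the 4 genes that were highest in those 2 libraries are shown because HIF binds the letters ACGTG or GCGTG. They are from RefSeq on GRCm38.p6, 5′ to 3′ on the gene's strand, and capitals mark each match on either strand; CACGTG holds ACGTG on both strands and counts as 2 matches.
Ankrd37, chr8:45999851-46000100, minus strand: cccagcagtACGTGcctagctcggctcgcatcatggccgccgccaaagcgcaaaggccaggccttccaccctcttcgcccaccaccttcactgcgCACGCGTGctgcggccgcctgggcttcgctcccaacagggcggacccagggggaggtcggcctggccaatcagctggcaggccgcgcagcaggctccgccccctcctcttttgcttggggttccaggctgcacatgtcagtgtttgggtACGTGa
Slc2a1, chr4:119108495-119108744, plus strand: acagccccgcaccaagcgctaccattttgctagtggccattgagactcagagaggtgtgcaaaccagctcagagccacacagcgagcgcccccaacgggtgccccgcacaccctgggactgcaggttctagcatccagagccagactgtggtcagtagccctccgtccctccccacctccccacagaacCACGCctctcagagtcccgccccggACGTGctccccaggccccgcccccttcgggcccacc
Ldha, chr7:46845554-46845803, plus strand: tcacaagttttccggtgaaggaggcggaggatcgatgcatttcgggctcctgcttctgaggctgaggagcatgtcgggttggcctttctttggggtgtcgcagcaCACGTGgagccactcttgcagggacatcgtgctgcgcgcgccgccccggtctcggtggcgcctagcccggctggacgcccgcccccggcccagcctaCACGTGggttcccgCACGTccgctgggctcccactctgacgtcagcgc
Egln3, chr12:54203875-54204124, minus strand: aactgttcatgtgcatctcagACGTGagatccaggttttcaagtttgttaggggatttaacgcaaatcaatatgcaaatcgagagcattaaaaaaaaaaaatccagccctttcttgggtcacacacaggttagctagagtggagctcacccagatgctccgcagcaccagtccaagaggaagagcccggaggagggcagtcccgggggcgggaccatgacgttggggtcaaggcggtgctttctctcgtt
The windows shown hold 4 matches in Ankrd37, 2 in Slc2a1, 5 in Ldha and 1 in Egln3. Ldha has a second window, chr7:46846832-46847081, which holds 1 match and is not shown. Of the 10 genes, 9 had an entry, Ndrg1 being the exception, and some had more than 1 start, which gave 12 windows. A match to either motif was found in 10 of the 12 windows, the exceptions being 1 window each of Vegfa and Pdk1. For Vegfa, on the minus strand, the window without a match (chr17:46032378-46032627) is the more upstream of its 2. Its window with matches (chr17:46025164-46025413) lies downstream of that start. For Pdk1 the window without a match is the more downstream of its 2. Of all 32851 windows, 38.6% had a match to either motif and 16.7% had at least 2 matches. The 10 genes were chosen for their link to hypoxia and glycolysis, and known HIF targets are among them. Their share beside that of all windows is therefore no test. The share of G and C was 67.6% in the Ankrd37 window, 67.2% in the Ldha window shown, 66.4% in Slc2a1 and 50.8% in Egln3. A match in these letters is not evidence of binding.

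The enzymes of glycolysis itself had the smallest spread of the 10, with an SD over the 9 libraries of 5.15% of the mean for Pgk1 and 5.80% for Ldha. Pgk1, phosphoglycerate kinase (mm9 chromosome X, 103382463 to 103399038, plus strand), was at 85.6, 85.9 and 83.8 FPKM in KO, 90.7, 76.4 and 89.3 FPKM in Het and 84.2, 81.7 and 88.8 FPKM in WT. Its highest library was 1.19 times its lowest, and KO differed from WT by 0.0036 (SE 0.068, 95% interval -0.15 to 0.16). Pgk1 is X-linked, and its level was 86.7 ± 2.34 FPKM in the 5 female libraries and 83.2 ± 5.94 FPKM in the 4 male ones (SD), with overlapping ranges. Ldha, the lactate dehydrogenase subunit that favours lactate (mm9 chromosome 7, 54101174 to 54110997, plus strand), was at 404, 371 and 359 FPKM in KO, 384, 341 and 361 FPKM in Het and 345, 340 and 371 FPKM in WT. The KO difference from WT was 0.10 (SE 0.067, limma adjusted p = 0.621), and WT replicate 3 lay above KO replicate 3. Without Het replicate 1 the Het difference from WT was -0.0032, against 0.040 with it. Ldha made up 95.03% ± 0.345 of the summed FPKM of Ldha, Ldhb and Ldhc in KO, 94.6% ± 0.715 in Het and 93.9% ± 0.563 in WT (SD, n = 3 each). Both genes have processed pseudogenes in mouse, and how the authors divided reads among copies is not given.

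Pdk1 encodes a kinase that keeps pyruvate out of mitochondria by switching off pyruvate dehydrogenase (mm9 chromosome 2, 71711329 to 71741915, plus strand). It was at 39.6, 40.1 and 38.0 FPKM in KO, 40.9, 35.02 and 36.4 FPKM in Het and 36.0, 29.9 and 38.3 FPKM in WT. The low WT replicate 2 set much of the difference, which was 0.18 in KO against WT (SE 0.091, limma adjusted p = 0.576) and 0.077 without that library. Pdk1 made up 40.6% ± 0.947 of the summed FPKM of the 4 Pdk genes in KO, 41.0% ± 3.22 in Het and 38.9% ± 1.78 in WT (SD, n = 3 each). Over the libraries Pdk1 followed Ldha, with a Pearson r of 0.776 (exact permutation p = 0.012, adjusted p = 0.27) and a Spearman rho of 0.900 (exact permutation p = 0.00203, adjusted p = 0.0913), and r was 0.810 without KO replicate 1 and Het replicate 1. By Pearson r the highest of the 45 pairs among the 10 genes was Ankrd37 with Slc2a1, and by Spearman rho it was Ldha with Pdk1. Ankrd37 with Slc2a1 had r = 0.869 (exact permutation p = 0.00185, adjusted p = 0.0831) and rho = 0.850 (exact permutation p = 0.00607, adjusted p = 0.137). It was 0.598 without KO replicate 1 and Het replicate 1, so it rests partly on those libraries. No pair passed after adjustment, 3 had an unadjusted Pearson p under 0.05, and r was positive for 29 pairs and negative for 16.

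Bnip3, a mitochondrial protein that promotes removal of mitochondria (mm9 chromosome 7, 146082519 to 146101189, minus strand), was at 23.7, 24.6 and 21.5 FPKM in KO, 21.3, 24.3 and 25.9 FPKM in Het and 21.7, 20.3 and 24.0 FPKM in WT. All groups overlapped, and KO differed from WT by 0.078 (SE 0.088), a difference that turned to -0.044 with sex as a covariate. Without WT replicate 3 it was 0.14. Its relative Bnip3l was at 32.9 ± 1.146 FPKM in KO, 31.6 ± 1.32 FPKM in Het and 33.0 ± 0.593 FPKM in WT (SD, n = 3 each). Vegfa, the main growth signal for blood vessels (mm9 chromosome 17, 46153943 to 46169326, minus strand), was at 35.3, 27.9 and 29.7 FPKM in KO, 33.5, 32.6 and 27.6 FPKM in Het and 34.0, 31.0 and 31.9 FPKM in WT. Both mutant groups reached below the WT range and KO also above it. KO against WT stood at -0.066 (SE 0.097), which was -0.16 without KO replicate 1, 0.0029 without KO replicate 2 and 0.025 with sex as a covariate. Among 9 other VEGF ligands and receptors 2 were higher and 7 lower in KO than in WT by sign, with a median of -0.14 against -0.026 over all genes, and 0 passed. The endothelial receptor gene Flt4 was at 3.90 ± 0.860 FPKM in KO and 5.52 ± 0.596 FPKM in WT (log2 difference -0.42, SE 0.15, limma adjusted p = 0.576), beside the lower endothelial sums in KO replicates 2 and 3 given above. Vegfc, a ligand of that receptor, differed by -0.34 (SE 0.15) and Nrp2, a co-receptor, by -0.27 (SE 0.15). Vegfb and Nrp1, the most abundant of the 9, were at 51.0 ± 2.94 and 30.2 ± 2.31 FPKM in KO and at 49.3 ± 2.22 and 33.3 ± 2.80 FPKM in WT. Vegfa made up 29.6% ± 0.589 of the summed FPKM of 5 VEGF ligand genes in KO, 29.8% ± 3.36 in Het and 30.3% ± 0.712 in WT (SD, n = 3 each).

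Car9, a carbonic anhydrase of the cell surface that helps cells export acid, had the widest spread of the 10 (mm9 chromosome 4, 43519898 to 43526597, plus strand). It was at 79.4, 97.4 and 64.7 FPKM in KO, 62.8, 80.0 and 80.3 FPKM in Het and 72.9, 78.8 and 41.9 FPKM in WT. WT replicate 3 was the lowest of the 9 libraries and KO replicate 2 the highest, a ratio of 2.32. The counting error of these values was at most 2.38% of the level, while the SD over the 9 libraries was 21.1%. KO differed from WT by 0.35 (SE 0.23, limma adjusted p = 0.626), but by 0.066 without WT replicate 3, and Het differed from WT by 0.24 (SE 0.23) and by -0.036 without that library. With sex as a covariate the KO difference was 0.57 (SE 0.27), and WT replicate 3 is the female WT library. Gm12454 overlaps Car9 on the other strand. Other carbonic anhydrase genes were far lower, with Car2 at 4.89, Car8 at 2.43, Car14 at 2.08 and Car4 at 0.339 FPKM on average over the 9 libraries.

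**Figure D4:**
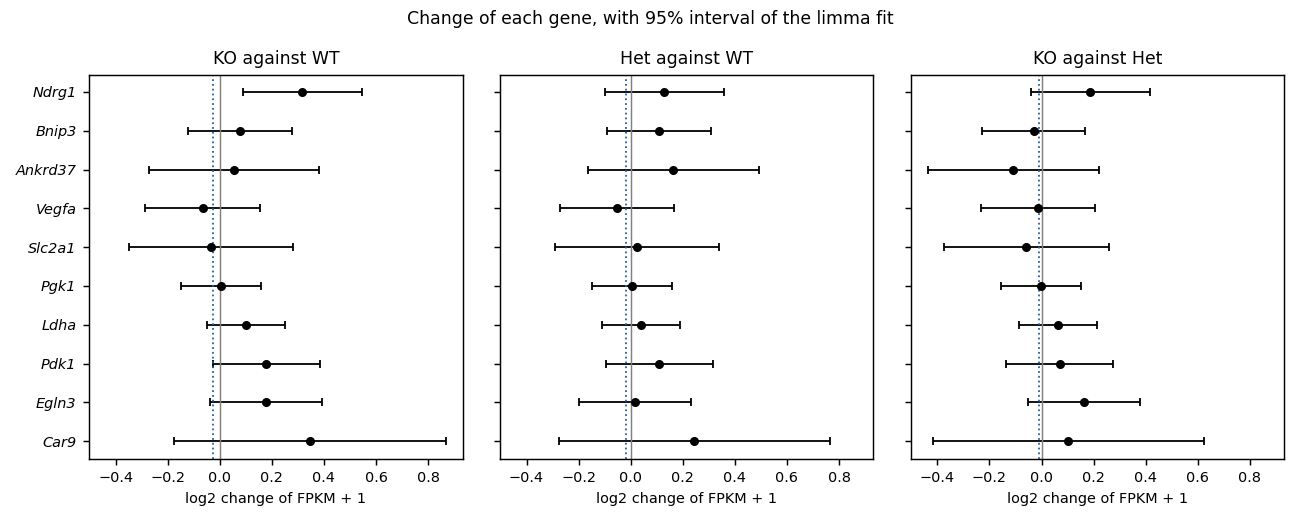
Difference on the log2(FPKM + 1) scale (horizontal axis) of each of the 10 genes in 3 comparisons, with the 95% interval of the limma fit; the dotted line is the median of all genes tested. Only the interval of Ndrg1 in KO against WT, 0.087 to 0.54, leaves out 0, and this interval is not adjusted for the number of genes.

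Set beside all genes, the 10 had a median log2 difference of 0.090 in KO against WT, with 8 higher and 2 lower by sign. Over all genes the median was -0.026, with 5521 higher and 7785 lower. These signs depended on single libraries. Without KO replicate 1, Ankrd37 and Pgk1 turned lower. Without KO replicate 2, Pgk1 turned lower while Vegfa and Slc2a1 turned higher. The sign of Pgk1 turned in 7 of 18 alternatives. In Het against WT the median was 0.074, with 9 higher and 1 lower, against -0.017 over all genes, and without Het replicate 1 the number higher was 5. In KO against Het it was 0.030, with 5 higher and 5 lower, against -0.011, and the number higher was 8 without Het replicate 1 or without KO replicate 3. The first 2 comparisons share their WT libraries, so they are not independent. WT replicate 2 held the lowest value of 4 of the 10 genes and of 2330 of all 13306 genes tested. The 10 genes were picked with earlier results of these data known.

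No gene of the related lists passed in any comparison. Of 10 genes for HIF factors and oxygen sensing, 3 were higher and 7 lower in KO than in WT by sign, with a median of -0.063, and 0 passed. Hif1a, the main oxygen-regulated subunit, was at 29.2 ± 2.31 FPKM in KO, 28.4 ± 0.892 FPKM in Het and 30.7 ± 1.41 FPKM in WT (SD, n = 3 each). Hif3a had one of the 2 highest levels of that list, at 38.7 ± 0.387, 37.2 ± 0.813 and 36.4 ± 2.72 FPKM in KO, Het and WT, and its KO difference was 0.087 (SE 0.057). Epas1, which encodes the HIF2 alpha subunit and is abundant in endothelium, was at 8.61, 6.38 and 6.93 FPKM in KO and 8.52, 9.84 and 8.85 FPKM in WT (-0.28, SE 0.10, limma adjusted p = 0.576). Vhl differed by -0.14 (SE 0.076). HIF activity is set largely through protein stability, so these RNA levels do not measure it.

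Of 20 other glycolysis genes, 9 were higher and 11 lower in KO than in WT by sign, with a median of -0.0046, and 0 passed. The most abundant, Tpi1 and Aldoa, were at 456 ± 19.1 and 348 ± 20.9 FPKM in KO and at 437 ± 51.7 and 325 ± 12.4 FPKM in WT (SD, n = 3 each). The smallest p belonged to Aldoc (-0.40, SE 0.19), Pfkfb3 (0.16, SE 0.082) and Ldhb (-0.20, SE 0.11). Of 24 other HIF target genes 12 were higher and 12 lower, with a median of 0.016, and 0 passed. Among them Gys1, glycogen synthase, was at 32.0, 31.0 and 33.4 FPKM in KO and 29.3, 27.9 and 30.05 FPKM in WT, Gbe1, the glycogen branching enzyme, at 14.3, 20.5 and 18.3 FPKM and 15.7, 11.3 and 14.4 FPKM, and P4ha2, a collagen hydroxylase subunit, at 21.2, 14.8 and 17.1 FPKM and 21.8, 24.5 and 19.8 FPKM. Their log2 differences were 0.14 (SE 0.059), 0.33 (SE 0.14) and -0.31 (SE 0.15), each with a limma adjusted p of 0.576. Mif and Fam162a, the most abundant of that list, were at 390 ± 21.1 and 171 ± 6.73 FPKM in KO and at 364 ± 23.0 and 164 ± 8.02 FPKM in WT. Among 11 tested paralogs of the 10 genes 4 were higher and 7 lower, with a median of -0.011, and 0 passed; the beta cell transporter gene Slc2a2 was at 6.63 ± 2.57 FPKM in KO and 8.96 ± 2.16 FPKM in WT. Slc2a4, the insulin-responsive transporter gene, differed by -0.34 (SE 0.24) and Pdk2 by 0.10 (SE 0.062). Ndrg2 and Pdk2 were the most abundant paralogs, at 40.5 and 27.6 FPKM over the 9 libraries. In Het against WT, 4 of the 10 HIF factor genes, 13 of the 20 glycolysis genes, 12 of the 24 HIF targets, 3 of the 9 VEGF genes and 4 of the 11 paralogs were higher by sign, and in KO against Het 5, 7, 14, 1 and 7 of the same lists were.

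**Figure D5:**
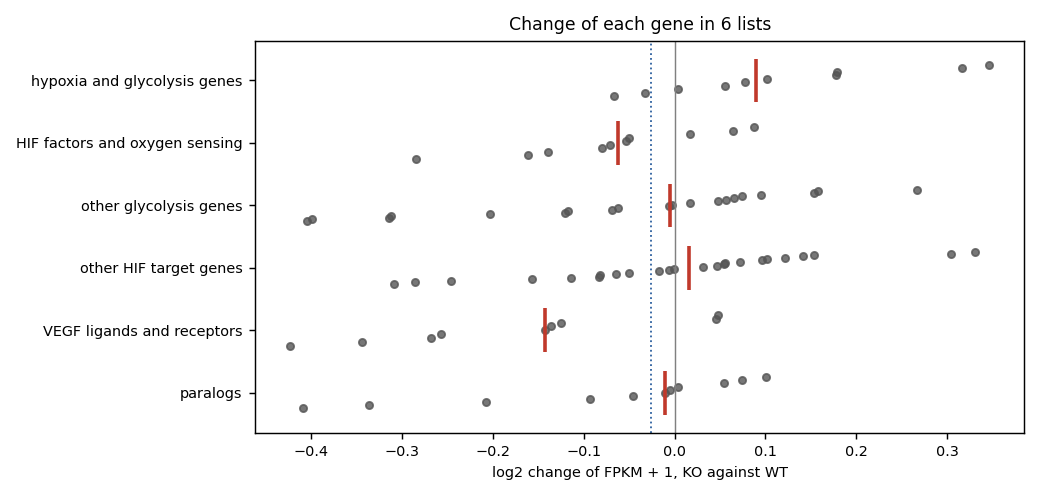
Log2 difference of each gene in KO against WT (horizontal axis) in 6 lists; red bars are list medians and the dotted line is the median of all genes tested. The 10 hypoxia and glycolysis genes have a median of 0.090, and the other lists lie between -0.14 and 0.016.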

How the data were processed

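Total RNA of whole pancreas was sequenced in 9 libraries and TopHat 2.0.4 placed the reads on mm9 with up to 4 mismatches and 10 hits each, per the labels. The submitters' processing notes also name CASAVA 1.8.2, Cufflinks and DESeq, but no annotation or strand setting was given. The authors deposited FPKM with lower and upper bounds and a status word per gene, per the file headers. FPKM of the 248 symbols with more than 1 of the 23699 loci were summed. Rows marked HIDATA were treated as missing, which removed 4 symbols; none of the 10 genes had a failed estimate. The file loci start at 0-based positions (10467 of 21816 matched genes start 1 base before GENCODE), so 1 was added. Fragments were implied from the upper bound as 2 standard errors of counting; bounds and counting errors cover counting only. Tests used limma 3.58.1 in R 4.3.3 with an intensity trend, genotype as the only term and a pseudocount of 1, and were tested on simulated data; correlations used exact permutation over 362880 orders of the libraries in Python 3.11.15. Alternatives were a pseudocount of 0.1, no filter, median-ratio scaling, only the 2 groups compared, sex as a covariate, array weights, failed estimates as missing, voom, the replicate number as a block, and leaving out each library. The genes named are the 10, the 3 with the smallest p and the 2 with the highest level of each related list, and the 3 genes most like Ndrg1, Pgk1 and Vegfa; Slc2a3, Slc16a3, Pfkp, Slc2a2, Bnip3l and the genes of a family share were named after their values were seen. The 10 genes and the lists were chosen with earlier results of these data known.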

Additional observations from a re-analysis of the deposited data

How the results depend on the processing

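None of the 10 genes passed in any of the 3 comparisons under any of the 18 alternatives. The smallest limma adjusted p was 0.0632, for Ndrg1 in KO against WT with array weights. Over the alternatives its limma adjusted p in that comparison was 0.0632 to 0.973. The array weights were 5.73 for KO replicate 3, and 0.446 and 0.541 for KO replicates 1 and 2. KO values with array weights thus rest mostly on 1 library. The number of all genes called in KO against WT was 5 with array weights, 1 with only the 2 groups compared, and 0 to 1 without single libraries (1 without KO replicate 1, WT replicate 1, WT replicate 2 or Het replicate 1). In Het against WT it was 6 with only the 2 groups compared, 1 with the replicate block, and 0 to 7 without single libraries (7 without KO replicate 1, 2 without Het replicate 2, 1 without WT replicate 1). In KO against Het it was 0 to 4 without single libraries (4 without KO replicate 1, 1 without Het replicate 1 or Het replicate 2). The cause was not tested. The unadjusted count in KO against WT was 558 with the sex covariate, 3730 with array weights, in KO against Het 1706 with array weights, and without a filter it was 922 in Het against WT and 616 in KO against Het. Deviations from the group means had an r of -0.189 to 0.290 between same-numbered libraries of different groups. Between differently numbered ones r was -0.344 to 0.276. With 3 libraries per group these values cannot settle whether the numbers pair the samples. The replicate block left 0 of the 10 genes called, with 0 genes called in KO against WT and in KO against Het. Among the 45 pairs of the 10 genes 0 passed under the added alternatives, a pseudocount of 0.1, median-ratio scaling and leaving out each library. The r of Ankrd37 with the neuron and glia sum was 0.903 to 0.943 and passed without any 1 library; that of Ndrg1 with the endothelial sum was -0.961 to -0.860 and did not pass without KO replicate 1, 2 or 3, Het replicate 1, WT replicate 1 or WT replicate 2 (adjusted p 0.0556 to 0.224). Ankrd37 had the largest counting error of the 10 genes, 9.02% to 11.4% of its level.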

Other observations

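Among the 13305 other genes tested, those whose log2(FPKM + 1) followed Ndrg1 most closely over the 9 libraries were Lxn (Pearson r = 0.978), Ccbl2 (0.971) and Anxa13 (0.969). Lxn encodes an inhibitor of carboxypeptidases and Anxa13 an annexin of epithelial cells. Lxn ran from 64.5 to 112 FPKM and Anxa13 from 20.8 to 51.7 FPKM. The closest to Pgk1 were Sugt1 (0.983), Zfp346 (0.946) and Myl10 (0.940), and the closest to Vegfa were Rbm14 (0.973), 5730408K05Rik (0.956) and Top3a (0.954). Each is the top of a search over all genes with 9 libraries, so a high r is built into the choice, and none of these values was tested. None of the 9 is among the 10 hypoxia and glycolysis genes or the related lists.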
